A study of Mus musculus with 8 samples.

Results

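A set of 10 adipocyte and lipid droplet genes was followed in the mouse lung: Cfd, Adipoq, Lep and Retn, which encode secreted proteins of fat cells, Plin1, Plin4 and Cidec, which encode proteins of the lipid droplet surface, and Fabp4, Pck1 and Ucp1, which serve fatty acid transport and metabolism. They are 10 of 22911 named genes on the array and were measured by 13 of its 56605 probes, matched by RefSeq accession. The members were selected on levels and group differences already seen in these same arrays, so the levels and differences of the 10 genes are given as a description, and their calls are counted beside the share of all genes called with nothing read from them. Lungs came from 8 female BALB/c mice, bought at 4 weeks of age, housed for 2 weeks and then kept on their feed for 70 days. The 2 NT mice received standard feed and no allergen. The 2 Ctrl-F mice received the same standard feed and were sensitized by 3 intraperitoneal injections of ovalbumin (OVA) on alum, on Days 42, 49 and 56, and then inhaled an OVA aerosol daily from Day 63 to Day 69. The 2 Cap-F mice were treated with OVA like Ctrl-F and fed carbonate apatite particles without oligodeoxynucleotide (ODN), and the 2 ODNcap-F mice were treated with OVA and fed such particles carrying a class-B CpG-ODN, an agonist of the innate receptor TLR9. Lungs of all groups were taken on Day 70, 24 h from the final aerosol. Feed was eaten freely, so the amount of particles each mouse took in was not fixed, and NT and Ctrl-F differed by the whole OVA protocol, its alum, injections and aerosols included. RNA of each whole lung was labelled with Cy3 and hybridized to 1 single-color array, and all 8 arrays lay on 1 slide.

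White adipocytes store triglyceride in 1 large lipid droplet. Plin1 coats that droplet and controls the access of lipases to it, Cidec (also called Fsp27) enlarges droplets by passing lipid between them, and Plin4 coats nascent droplets. The same cells secrete adipsin (Cfd, complement factor D, the serine protease of the alternative complement pathway), adiponectin (Adipoq), leptin (Lep) and, in rodents, resistin (Retn). Differentiation is driven by PPARG and members of the C/EBP family, which act on many of these genes. Fabp4 is less restricted and is also made by macrophages and capillary endothelium, which are abundant in lung. Brown adipocytes differ in burning fuel for heat through uncoupling protein 1 (Ucp1). The normal lung parenchyma holds few adipocytes, but fat lies around the hilum, the heart and the large vessels.

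The level given for a probe is the log2 of its background-subtracted intensity after quantile normalization over the 8 arrays, so a difference of 1 is a factor of 2. The scanner software flags whether a spot is well above background, and the lowest log2 level so flagged lay between 3.61 and 4.18 on the 8 arrays. Levels are compared between mice for 1 probe at a time and never between probes. The SE given with a difference comes from a linear model fit (limma) that pools the spread between mice over all 4 groups. It is not the spread of the compared groups alone. In whole lung RNA, fewer cells of a type and less RNA per cell cannot be told apart. With 2 mice against 2, an exact permutation test cannot give a two-sided p below 0.333, and having only 8 arrays limits all precision here. Single arrays had 61.3% to 65.0% of their probes well above background and none with a saturated spot, and the 2 arrays of a group correlated at 0.994 to 0.996 over probes. On the slide, row 1 held NT and Ctrl-F and row 2 held Cap-F with ODNcap-F, so row and group cannot be told apart in comparisons across rows. Nothing in the labels says from which of the repeated feeding experiments each mouse came.

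Promoter sequences of 9 of the 10 genes were found in RefSeq (mouse build GRCm38.p6, the C57BL/6J reference and not the BALB/c genome). Fabp4 is named only. The 250 bases before the transcription start are shown for Cfd, Adipoq, Plin1 and the second annotated start of Cidec, whose levels differed most between NT and Ctrl-F, and for Lep, whose 8 levels lay closest together among the genes tested. Capitals mark matches to TTGCNNAA, a C/EBP element, searched on both strands.

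Cfd (chr10:79890603-79890852, plus strand): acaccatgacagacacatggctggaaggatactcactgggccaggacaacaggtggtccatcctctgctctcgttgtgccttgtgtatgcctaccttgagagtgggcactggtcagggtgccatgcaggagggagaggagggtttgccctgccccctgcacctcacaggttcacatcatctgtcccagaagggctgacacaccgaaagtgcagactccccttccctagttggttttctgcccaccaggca
Adipoq (chr16:23146286-23146535, plus strand): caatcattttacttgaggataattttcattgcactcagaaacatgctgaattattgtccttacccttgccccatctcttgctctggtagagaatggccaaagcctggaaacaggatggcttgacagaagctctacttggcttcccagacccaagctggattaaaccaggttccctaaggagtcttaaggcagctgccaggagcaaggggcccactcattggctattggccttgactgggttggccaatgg
Plin1 (chr7:79732777-79733026, minus strand): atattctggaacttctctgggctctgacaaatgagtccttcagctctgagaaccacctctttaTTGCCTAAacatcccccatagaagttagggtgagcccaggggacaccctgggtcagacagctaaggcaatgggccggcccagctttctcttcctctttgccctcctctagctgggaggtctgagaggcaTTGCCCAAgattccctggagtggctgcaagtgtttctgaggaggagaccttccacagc
Cidec, second start (chr6:113434765-113435014, minus strand): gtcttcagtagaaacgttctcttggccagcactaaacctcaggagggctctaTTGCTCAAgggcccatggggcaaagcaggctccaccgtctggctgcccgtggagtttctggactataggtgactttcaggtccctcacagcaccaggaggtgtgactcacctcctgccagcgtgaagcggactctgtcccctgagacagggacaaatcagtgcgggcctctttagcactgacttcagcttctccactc
Lep (chr6:29059971-29060220, plus strand): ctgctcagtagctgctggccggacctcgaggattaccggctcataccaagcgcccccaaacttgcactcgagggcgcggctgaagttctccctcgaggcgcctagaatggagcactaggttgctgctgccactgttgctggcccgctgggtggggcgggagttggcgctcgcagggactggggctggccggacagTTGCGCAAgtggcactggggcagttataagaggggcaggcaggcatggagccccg

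TTGCNNAA was found in 3 of 10 member promoters (Cidec has 2 annotated starts), against 9.56% of 32851 mouse promoters of this length. Plin1 held 2 matches, at 187 to 180 and at 58 to 51 bases before the start. Lep held 1, at 55 to 48 bases before the start, which reads the same on both strands, and Cidec held 1, at 198 to 191 bases before its second start. The PPAR and RXR element (a direct repeat spaced by 1 base, searched on both strands) was found in 0 of the 10 and in 0.338% of all promoters, and TATAAA on the gene strand in 0 of the 10 and in 7.59% of all. CACGTG, an E-box, was likewise in 0 of the 10 and in 6.02% of all. A match is a string of letters in this window and not a bound site, and Plin1 and Lep, which both held one, had unlike levels across the mice.

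Of the secreted proteins, Cfd and Adipoq were high in NT and ODNcap-F, low in Ctrl-F and unlike in the 2 Cap-F mice. Cfd (NM_013459) read 11.14 and 10.71 in the NT mice, 5.17 and 8.27 in Ctrl-F, 7.38 and 10.56 in Cap-F, and 10.11 and 11.10 in ODNcap-F, and was well above background in all 8. Both Ctrl-F mice lay below every NT and ODNcap-F mouse, while the Cap-F mice stood 3.18 apart, with Cap-F mouse 1 below the higher Ctrl-F mouse and Cap-F mouse 2 between the ODNcap-F mice. The mean of Ctrl-F minus NT was -4.21 ± 1.33 (SE, n = 2 mice each) on the log2 scale, an 18.5-fold lower level, but ran from -5.76 without Ctrl-F mouse 2 to -2.65 without Ctrl-F mouse 1, when Cfd was not called. That of ODNcap-F minus Ctrl-F was 3.88 ± 1.33, a 14.8-fold higher one, which was not called (limma adjusted p = 0.74). A dimmer Cfd probe ordered the arrays the same way except that ODNcap-F mouse 2 came before NT mouse 1, with 10.13 and 9.82 in the NT mice, 3.21 and 7.49 in Ctrl-F, 6.10 and 9.53 in Cap-F, and 9.22 and 10.27 in ODNcap-F, and in Ctrl-F mouse 1 it was not well above background.

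Adipoq (NM_009605) read 7.09 and 6.46 in the NT mice, 4.03 and 4.12 in Ctrl-F, 3.39 and 6.17 in Cap-F, and 6.03 and 7.12 in ODNcap-F. It was well above background in both NT mice, in both ODNcap-F mice and in Cap-F mouse 2, and in neither Ctrl-F mouse nor in Cap-F mouse 1. The NT mean was 6.52-fold and the ODNcap-F mean 5.66-fold above Ctrl-F, the latter not called (limma adjusted p = 0.74). Since neither Ctrl-F mouse was well above background, these folds are only approximate. ODNcap-F minus NT was -0.20 ± 0.89 on the log2 scale (SE, n = 2 mice each), and the mice of these groups overlapped.

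Lep, the satiety hormone of fat, did not share that pattern. Lep (NM_008493) read 7.17 and 7.23 in the NT mice, 7.50 and 7.20 in Ctrl-F, 7.01 and 7.34 in Cap-F, and 7.32 and 7.15 in ODNcap-F. Its whole range over 8 mice was narrow and the groups overlapped in each of the 6 comparisons, with Ctrl-F minus NT at 0.15 ± 0.15 (SE, n = 2 mice each). It was well above background in all 8 mice, also in the mice in which Adipoq was not.

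The 2 Retn probes disagreed, and are named brighter and dimmer by their means over the 8 arrays. The brighter (both match NM_001204959) read 7.98 and 7.50 in the NT mice, 8.71 and 8.87 in Ctrl-F, 8.56 and 8.96 in Cap-F, and 9.00 and 9.38 in ODNcap-F, so that every OVA-treated mouse lay above both NT mice. The dimmer read 8.13 and 7.87 in the NT mice, 2.97 and 4.86 in Ctrl-F, 4.10 and 6.74 in Cap-F, and 6.54 and 7.55 in ODNcap-F, so that every OVA-treated mouse lay below both NT mice. Ctrl-F minus NT was 1.05 ± 0.23 with the brighter probe and -4.09 ± 0.99 with the dimmer (SE, n = 2 mice each), so no direction can be given for Retn as a gene. The dimmer probe ordered the highest 5 mice as Plin4 and Cidec did, with NT above ODNcap-F mouse 2, Cap-F mouse 2 and ODNcap-F mouse 1. In Ctrl-F mouse 1 and Cap-F mouse 1 it was not well above background.

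**Figure D1:**
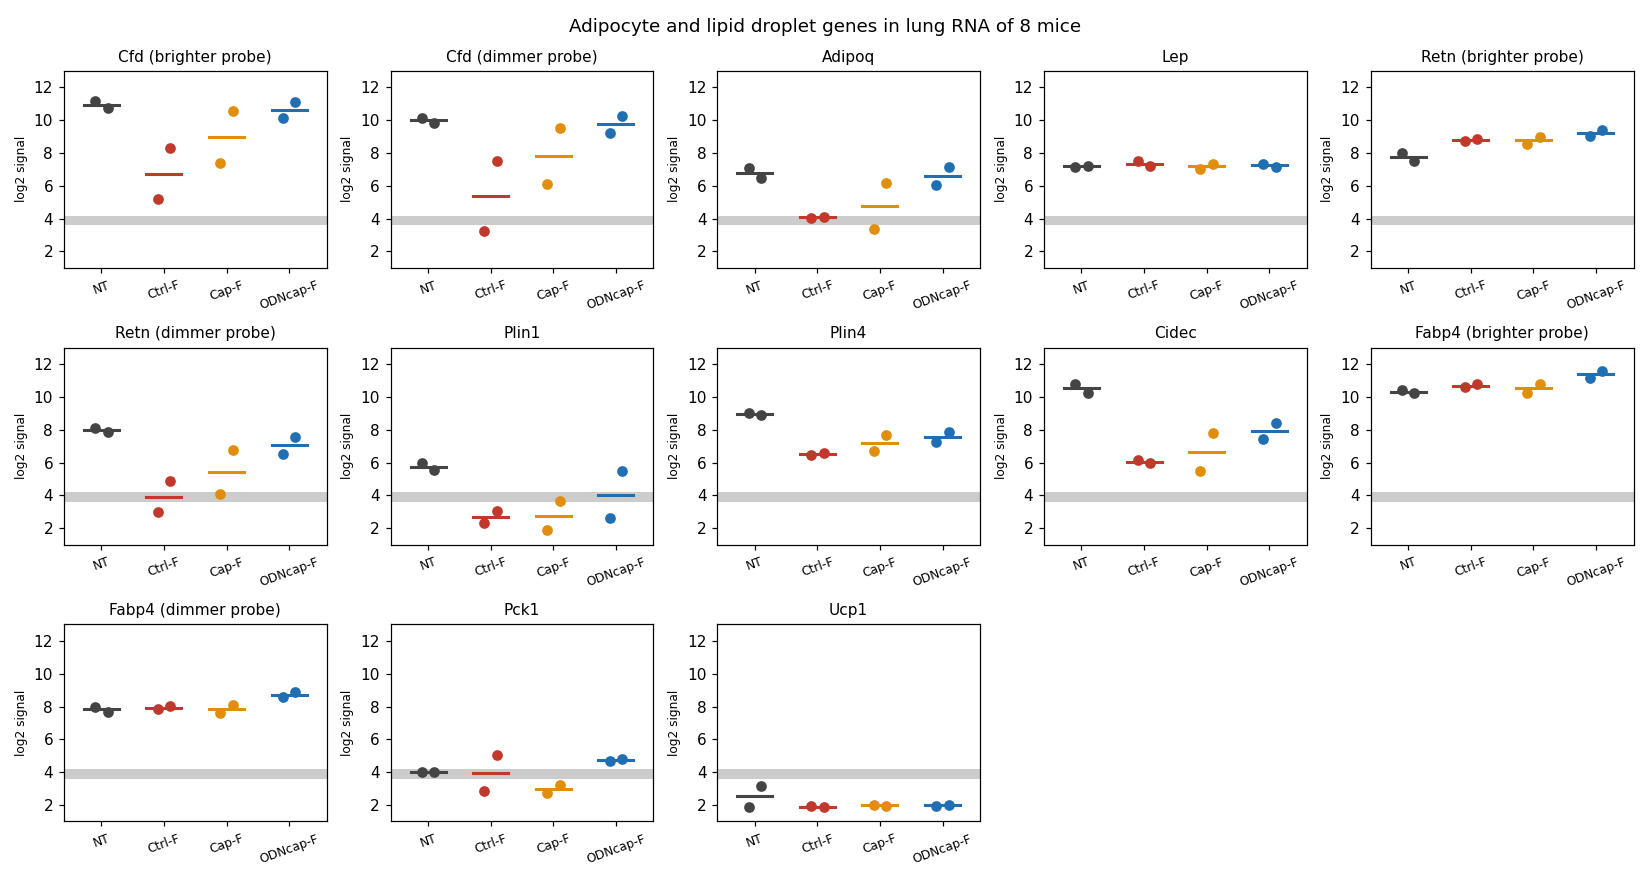
Log2 signal (y axis, quantile normalized) of each of the 13 probes in the 4 groups (x axis), with 1 point per mouse and a line at the mean of 2 mice. The grey band spans the lowest signal flagged well above background on the 8 arrays (3.61 to 4.18): Cfd, Adipoq, the dimmer Retn probe, Plin1, Plin4 and Cidec were low in Ctrl-F, whereas Lep stayed near 7 and the brighter Retn probe was lowest in NT.

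Of the droplet proteins, Cidec and Plin4 were highest in NT and lower than that in both ODNcap-F mice. Cidec (NM_178373) read 10.80 and 10.25 in the NT mice, 6.15 and 5.94 in Ctrl-F, 5.48 and 7.78 in Cap-F, and 7.44 and 8.38 in ODNcap-F. Both ODNcap-F mice lay above both Ctrl-F mice and below both NT mice, with ODNcap-F minus Ctrl-F at 1.86 ± 0.74 and ODNcap-F minus NT at -2.61 ± 0.74 (SE, n = 2 mice each). Ctrl-F minus NT was -4.48 ± 0.74, a 22.3-fold lower level, the largest difference among the 9 genes tested (by their brighter probe) in that comparison. Cidec was well above background in all 8 mice.

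Plin4 (NM_020568) read 9.03 and 8.92 in the NT mice, 6.46 and 6.61 in Ctrl-F, 6.72 and 7.67 in Cap-F, and 7.28 and 7.87 in ODNcap-F, all well above background. The order of the group means was NT, ODNcap-F, Cap-F and Ctrl-F. The ODNcap-F and Cap-F mice overlapped, while Ctrl-F lay below both of them and NT above all. Ctrl-F minus NT was -2.45 ± 0.33 and ODNcap-F minus Ctrl-F 1.04 ± 0.33 (SE, n = 2 mice each).

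Plin1 (NM_175640) read 5.95 and 5.56 in the NT mice, 2.31 and 3.02 in Ctrl-F, 1.87 and 3.67 in Cap-F, and 2.61 and 5.49 in ODNcap-F. Only both NT mice and ODNcap-F mouse 2 were well above background. With dimmer values raised to the lowest level so flagged on their array, NT was 3.33-fold above Ctrl-F and 3.25-fold above Cap-F. The ODNcap-F mean rests on mouse 2: without it, ODNcap-F minus Ctrl-F was -0.06 in place of 1.38, and ODNcap-F minus Cap-F was -0.16 in place of 1.28. ODNcap-F minus NT was -1.70 ± 1.01 (SE, n = 2 mice each), which was not called. Cidec and Plin4 had both ODNcap-F mice above Ctrl-F, and Plin1 had 1 of 2. With normexp background correction, Plin1 differed from NT by -0.72 in Ctrl-F and -0.75 in Cap-F and was not called. That setting adds an offset of 50 to each intensity, which shrinks log2 differences of dim probes such as this one. Plin1 was also not called in either comparison with no filter on dim probes.

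Of the genes of fatty acid transport and metabolism, Fabp4, the fatty acid carrier, differed in another way. Fabp4 (NM_024406) read 10.43 and 10.20 in the NT mice, 10.59 and 10.77 in Ctrl-F, 10.24 and 10.78 in Cap-F, and 11.18 and 11.59 in ODNcap-F. Both ODNcap-F mice lay above the 6 others, and the dimmer probe, with 7.59 to 8.09 in the 6 other mice and 8.59 and 8.87 in ODNcap-F, did the same. ODNcap-F minus NT was 1.06 ± 0.22, ODNcap-F minus Ctrl-F 0.70 ± 0.22, and ODNcap-F minus Cap-F 0.87 ± 0.22 (SE, n = 2 mice each).

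Pck1, the enzyme that commits carbon to glyceroneogenesis in fat and to gluconeogenesis in liver, lay near the detection limit. It (NM_011044) read 3.99 and 4.03 in the NT mice, 2.83 and 5.08 in Ctrl-F, 2.75 and 3.23 in Cap-F, and 4.67 and 4.82 in ODNcap-F, and neither Cap-F mouse nor Ctrl-F mouse 1 was well above background. With the Cap-F values raised to the lowest level flagged well above background on their array, ODNcap-F was 1.61-fold above Cap-F. The Ctrl-F mice were the highest and the next to lowest of the 8, and Ctrl-F minus NT moved from -1.18 to 1.07 according to which Ctrl-F mouse was left out. Ucp1 (NM_009463), the defining gene of brown fat, read between 1.89 and 3.14 and was not well above background in any of the 8 mice.

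**Figure D2:**
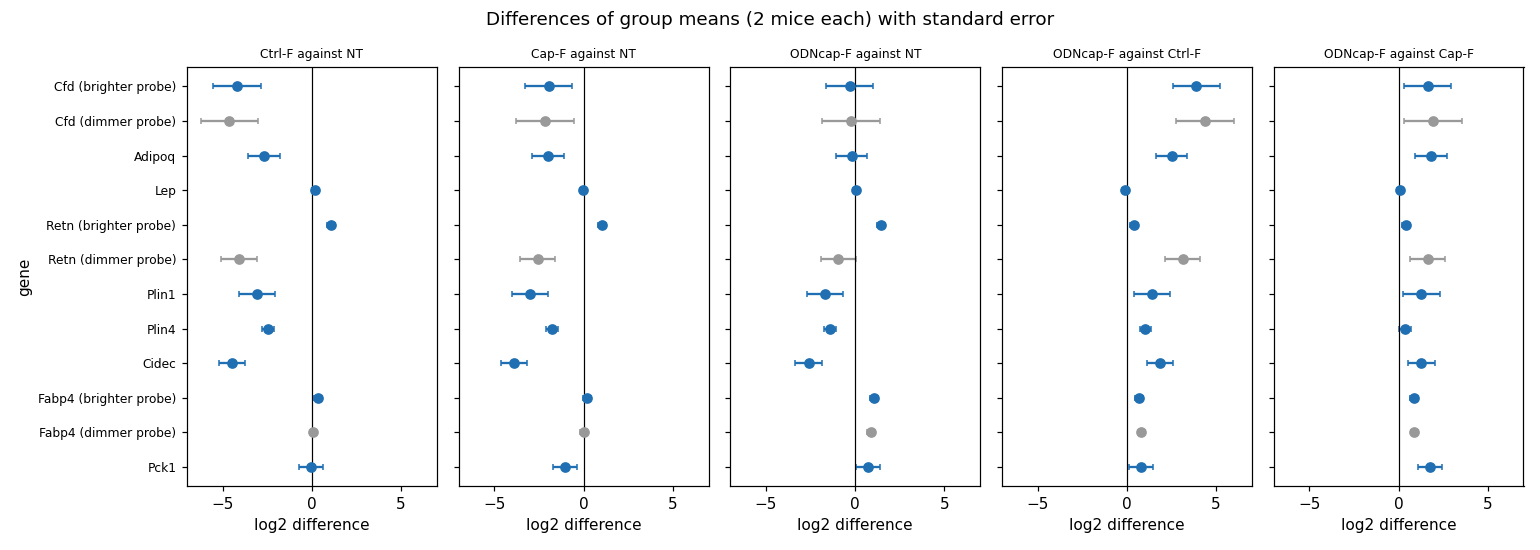
Difference of group means in log2 signal (x axis) for the 12 kept probes (y axis) in 5 comparisons, with the standard error of the limma fit as bars (2 mice per group), blue for the probe that stands for the gene and grey for a second probe. The 2 Cfd probes had the widest errors (1.62 for the dimmer and 1.33 for the brighter), and the ODNcap-F mean of the brighter lay 3.88 above Ctrl-F but -0.32 from NT, whereas Cidec and Plin4 remained lower in ODNcap-F than in NT.

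To be tested, a probe had to be well above background in both mice of 1 group or more, which 9 of the 10 genes met and Ucp1 did not. Adipoq, Plin1 and Pck1 passed only through groups in which they were high. A call means a limma p, adjusted by Benjamini-Hochberg, under 0.05 together with a fold change over 2, for the brightest probe of a gene. Of the 9, 5 were called lower (Cfd, Adipoq, Plin1, Plin4 and Cidec) and 1 higher (Retn) in Ctrl-F against NT, where 22.8% of 28992 genes and unnamed transcripts tested were called, 12.2% lower and 10.5% higher. In Cap-F against NT, 3 were called lower (Plin1, Plin4 and Cidec) and 1 higher (Retn), against 19.6% of all, 9.87% lower and 9.74% higher. In ODNcap-F against NT, 2 were called lower (Plin4 and Cidec) and 2 higher (Retn and Fabp4), against 20.7% of all, 10.8% lower and 9.86% higher. Retn is counted here, and in the medians below, by its brighter probe. Its dimmer probe was called lower in Ctrl-F against NT and was not called in Cap-F or ODNcap-F against NT. The Retn calls therefore give no direction for the gene. These 3 comparisons share the NT mice, the genes were proposed with such differences known, and nothing is read from the counts. Without NT mouse 1, Ctrl-F minus NT was -3.99 for Cfd, -2.39 for Adipoq and -2.89 for Plin1. Without NT mouse 2 it was -4.42, -3.02 and -3.28, and these genes were not called in either fit. Retn was at 0.81 without NT mouse 2, below the fold threshold. Cfd and Adipoq also lost their calls without either ODNcap-F mouse, outside this comparison, at unchanged differences of -4.21 and -2.70. A call lost with 1 mouse fewer thus does not show that the difference rested on that mouse.

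Among the OVA-treated groups limma called 0 of the 9 in each of 3 comparisons. All genes were called at a share of 0.00345% in Cap-F against Ctrl-F, 0% in ODNcap-F against Ctrl-F, and 0.00345% in ODNcap-F against Cap-F. At an unadjusted p under 0.05 with the same fold, 4 were called in ODNcap-F against Ctrl-F (Cfd, Adipoq, Plin4 and Cidec, all higher, beside 0.655% of all genes), 1 in ODNcap-F against Cap-F (Pck1, higher and not well above background in either Cap-F mouse, beside 0.642%) and 0 in Cap-F against Ctrl-F (beside 0.98%). The local-pooled-error test, which the study used and which takes its error from probes of like intensity, called 4 in ODNcap-F against Ctrl-F (beside 0.452%), 3 in ODNcap-F against Cap-F (Cfd, Adipoq and Cidec, beside 0.355%) and 1 in Cap-F against Ctrl-F (Cfd, beside 0.483%). Both ODNcap-F mice lay above both Ctrl-F mice in 6 of the 9, namely Cfd, Adipoq, Retn, Plin4, Cidec and Fabp4, while 17% of all genes did so and 18.6% were lower in both. ODNcap-F and Cap-F, which share a slide row, did not overlap in 3 of the 9 (Retn, Fabp4 and Pck1, all higher in ODNcap-F), beside 21% of all genes higher and 24.7% lower.

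The median log2 difference over the 9 genes against NT was -2.45 for Ctrl-F, -1.78 for Cap-F and -0.20 for ODNcap-F, where the medians of all genes were -0.116, -0.108 and -0.122. It was 0.10 in Cap-F against Ctrl-F, 1.04 in ODNcap-F against Ctrl-F and 1.28 in ODNcap-F against Cap-F, where the medians of all genes were 0.003, -0.0067 and -0.0089. The 2 Cap-F mice decide part of these values. Without Cap-F mouse 1, Cap-F minus NT became -0.61 and ODNcap-F minus Cap-F 0.22, and without Cap-F mouse 2 the latter became 2.00.

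The members did not vary as 1 block over the 8 arrays. The Pearson correlation of each gene with the mean of the other 8 was 0.94 for Adipoq, 0.79 for Cfd, 0.72 for Plin1, 0.65 for Cidec, 0.59 for Plin4, 0.51 for Pck1 and 0.43 for Fabp4. For Lep and for the brighter Retn probe it was -0.12 each. The dimmer Retn probe, which ordered the highest mice as Plin4 and Cidec did, was not included. These correlations describe 8 arrays that share a slide and 4 treatments, and the arrays are not independent draws.

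The mean of a cardiomyocyte list was low in the same mice as the mean of the 5 genes Cfd, Adipoq, Plin1, Plin4 and Cidec. These 5 are the members called lower in Ctrl-F against NT, a set chosen after the values were seen. It leaves out Lep, Retn (by its brighter probe), Fabp4 and Pck1, which were not called lower there. The mean log2 level of 10 cardiomyocyte genes (such as Myh6, Tnnt2, Tnni3, Myl7 and Nppa, which build and signal for heart muscle and are also made in the muscle sleeve of pulmonary veins) was 10.02 and 9.18 in the NT mice, 7.53 and 8.16 in Ctrl-F, 7.58 and 9.52 in Cap-F, and 9.11 and 9.67 in ODNcap-F. The mean of the 5 genes was 8.80 and 8.38 in the NT mice, 4.82 and 5.59 in Ctrl-F, 4.97 and 7.17 in Cap-F, and 6.69 and 7.99 in ODNcap-F. In both measures the same 3 mice were the lowest, Cap-F mouse 1 and the Ctrl-F pair, and Cap-F mouse 2 stood with the ODNcap-F mice. The order of the others differed, since the cardiomyocyte mean of NT mouse 2 lay below those of Cap-F mouse 2 and ODNcap-F mouse 2. Myh6, cardiac myosin heavy chain, read 13.83 and 12.62 in the NT mice, 9.06 and 9.92 in Ctrl-F, 8.87 and 12.60 in Cap-F, and 12.05 and 12.85 in ODNcap-F. Of the 10, limma called 5 lower when Ctrl-F was set against NT, beside 12.2% of all genes. Between ODNcap-F and Ctrl-F it called 0 of the 10, and also 0 of all genes. Actc1 and Mybpc3 were not lower in Ctrl-F, with Ctrl-F minus NT at 0.15 ± 0.21 and 0.41 ± 0.39 (SE, n = 2 mice each). The part that heart or vein tissue taken with the lung has in the values of the 5 genes was not tested.

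Other marker lists had other profiles. The mean of 8 capillary endothelium genes lay between 12.13 and 12.28 in NT and between 10.96 and 11.21 in the 6 OVA-treated mice, and so did not separate ODNcap-F from Ctrl-F. Of these 8, 4 were called lower in Ctrl-F against NT, beside 12.2% of all genes. Mesothelium genes (6, covering the surfaces of lung and heart) lay at 10.24 and 10.40 in NT and between 8.80 and 9.48 in the OVA-treated mice. The 10 alveolar macrophage genes lay at 11.52 and 11.64 in NT and between 11.10 and 11.47 in the OVA-treated mice. The 7 alveolar type 2 cell genes, which mark the lung itself, lay at 15.08 and 15.18 in NT and between 14.69 and 14.79 in the OVA-treated mice. Every gene of both lists was detected on every array. Within the alveolar macrophage list, 4 of 10 were called higher and 3 lower in Ctrl-F against NT, from Fabp1 at -4.40 to Chil3 at 2.84, beside 22.8% of all genes. The mean of 7 measured fast skeletal muscle genes lay between 6.41 and 7.01, and Myh1 was not well above background in any mouse. The 5 measured Schwann cell genes lay at 9.40 and 9.50 in NT and between 8.54 and 8.85 in the OVA-treated mice, with Cdh19 not well above background in any mouse. Of 8 thymus genes, Rag1, Rag2 and Ptcra were not well above background in any mouse, and the mean of the 5 others was 6.33 and 6.83 in NT and between 7.20 and 7.41 in the OVA-treated mice. Whether these shifts have a part in the values of the 10 genes was not tested.

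**Figure D3:**
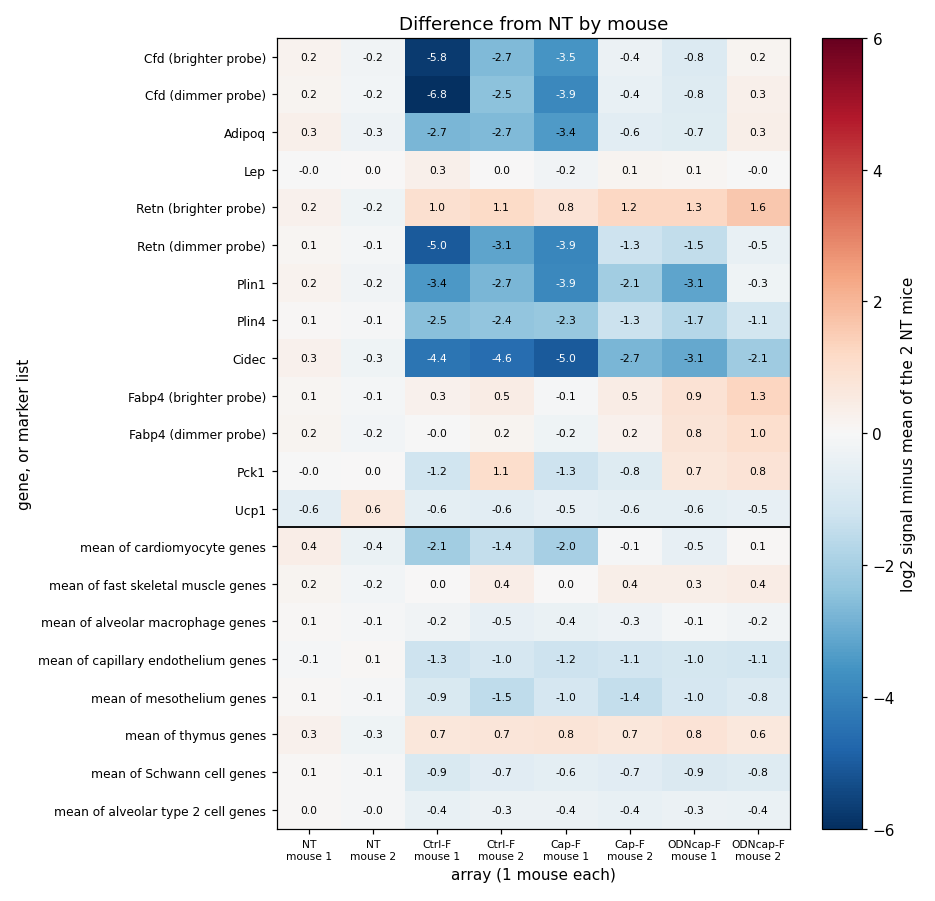
Log2 signal of each probe (rows above the line) and mean log2 signal of each marker list (rows below the line) in each of the 8 mice (columns), minus the mean of the 2 NT mice; blue is lower and red higher than NT, and each cell gives its value. The lowest values of Cfd, Adipoq, Plin4, Cidec and the dimmer Retn probe fall in Cap-F mouse 1 and the Ctrl-F pair, the 3 mice with the lowest mean of cardiomyocyte genes.

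By the rule of the highest Pearson correlation with the mean profile of the 9 kept members, over 8 arrays and 16562 named genes, each standardized, the 10 genes most like them were Fbxo36 (0.979), Mboat1 (0.962), Casq2 (0.957), Sln (0.956), Pgam2 (0.950), Adig (0.949), Ak8 (0.949), Gm16861 (0.946), Mybphl (0.944) and Ckmt2 (0.943). Casq2 (cardiac calsequestrin), Sln (sarcolipin), Pgam2 (muscle phosphoglycerate mutase), Mybphl (a myosin-binding protein) and Ckmt2 (sarcomeric mitochondrial creatine kinase) are striated muscle genes, and Adig (adipogenin) is an adipocyte gene. Sln ranged over 5.06 log2 units between mice, whereas Fbxo36 and Mboat1 ranged over 0.54 and 0.32. With the profile of Cfd, Adipoq, Plin1, Plin4 and Cidec alone, a set chosen after the values were seen, the leading genes were Myh8 (0.987) and Myh7b (0.984), both myosin heavy chains. The correlations are a description, and the 8 arrays share their slide and treatments.

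Genes of the wider adipocyte program were read from 6 lists with 82 genes, of which 77 were tested. Among these, limma called 8 higher and 19 lower in Ctrl-F against NT, 6 higher and 20 lower in Cap-F, and 7 higher and 17 lower in ODNcap-F against the same NT mice, beside the shares of all genes given above. In the 3 comparisons among the OVA-treated groups 0 of 77 were called. There, an unadjusted p called 1 in ODNcap-F against Ctrl-F (Cox8b), 1 in ODNcap-F against Cap-F (Angptl4) and 0 in Cap-F against Ctrl-F, and the local-pooled-error test called as many.

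The regulators Pparg and Cebpa were not called, while Klf15 fell. Pparg, the nuclear receptor that drives fat cell formation, read 9.87 and 9.70 in NT against 10.13 and 10.29 in Ctrl-F, a difference of 0.43 ± 0.10 that was below the fold threshold (SE, n = 2 mice each, limma adjusted p = 0.0109). Cebpa differed by 0.02 ± 0.11. Of 11 transcription factors tested, 1 was called in Ctrl-F against NT, beside 22.8% of all genes. This was Klf15, a glucocorticoid-induced Krüppel-like factor of fat, liver and muscle, which fell by 2.87 ± 0.25 (limma adjusted p = 0.00025). It read 11.77 and 11.49 in NT and between 8.24 and 9.11 in the 6 OVA-treated mice, and ODNcap-F minus Ctrl-F was 0.15 ± 0.25, within the spread between mice.

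Of 15 other lipid droplet genes tested, 1 rose and 3 fell in Ctrl-F against NT, a share near the 22.8% of all genes called. Hilpda, a hypoxia-inducible inhibitor of lipolysis, read 13.77 and 13.76 in the NT mice, 11.58 and 11.85 in Ctrl-F, 11.76 and 11.80 in Cap-F, and 12.26 and 12.17 in ODNcap-F, and fell by 2.05 ± 0.10 in Ctrl-F (limma adjusted p = 4.44e-05). G0s2, another inhibitor of lipolysis, fell by 1.36 ± 0.12, and Cavin1, a caveolar coat protein, fell by 1.32 ± 0.10. Cideb, a droplet protein of liver and gut, rose by 1.03 ± 0.16, but its second probe differed by 0.10 and the mean of its probes by 0.57, which was not called. Nor was Cideb called with normexp background correction (0.83), with NT mouse 2 left out (0.94) or with Ctrl-F mouse 2 left out (0.95). Plin2, the droplet coat of most cell types, differed by 0.62 ± 0.17, Plin5, that of heart and other oxidative tissue, by -0.99 ± 0.20, Cidea by 0.18 ± 0.42, the triglyceride lipase Pnpla2 by -0.37 ± 0.08 and the hormone-sensitive lipase Lipe by -0.63 ± 0.19, and none of these 5 was called.

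Of 22 genes of fatty acid uptake and triglyceride synthesis tested, 3 rose and 3 fell in Ctrl-F against NT, which again is near the 22.8% of all genes. Slc27a1, a fatty acid transporter, rose by 2.46 ± 0.32 (limma adjusted p = 0.00111), and Pcx, pyruvate carboxylase, rose by 1.41 ± 0.08. Thrsp, a lipogenic nuclear protein, fell by 2.07 ± 0.29, Dgat2, the last enzyme of triglyceride synthesis, fell by 1.32 ± 0.11, and Gpihbp1, which anchors lipoprotein lipase on capillary endothelium, fell by 1.29 ± 0.11. Lpl itself differed by 0.42 ± 0.19 and the fatty acid receptor Cd36 by -0.05 ± 0.10, and neither was called. Thrsp read 9.55 in each NT mouse, 7.29 and 7.66 in Ctrl-F, and 7.99 and 8.67 in ODNcap-F.

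Brown adipocyte genes were called on both sides in Ctrl-F against NT, 1 higher and 4 lower of 12 tested, beside 10.5% and 12.2% of all genes. Ucp1 was undetected. Cox8b, a cytochrome oxidase subunit of brown fat that heart also makes, read 10.14 and 9.74 in the NT mice, 6.61 and 6.89 in Ctrl-F, 6.48 and 8.02 in Cap-F, and 7.95 and 8.54 in ODNcap-F. It fell by 3.19 ± 0.50 in Ctrl-F (limma adjusted p = 0.00247), and its ODNcap-F minus Ctrl-F difference of 1.49 ± 0.50 was not called (limma adjusted p = 0.74). Otop1, a proton channel, fell by 1.88 ± 0.16 and Cox7a1, another oxidase subunit of muscle and brown fat, fell by 1.06 ± 0.17, while Dio2, the enzyme that activates thyroid hormone, rose by 1.33 ± 0.15, though only by 0.63 with normexp background correction, which was not called. Cox8b was lowest in the same 3 mice as the mean of the cardiomyocyte genes.

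Of 9 receptors of fat hormones and catecholamines, 5 fell in Ctrl-F against NT and none rose, beside 12.2% of all genes called lower and 10.5% higher. Adrb3, the beta-3 adrenergic receptor of fat, read 10.89 and 11.27 in the NT mice, 7.55 and 7.56 in Ctrl-F, 8.24 and 8.32 in Cap-F, and 7.99 and 8.39 in ODNcap-F, and fell by 3.52 ± 0.17 in Ctrl-F (limma adjusted p = 3.86e-05). Its second probe fell by 2.62 ± 0.17. Cdh13 (T-cadherin, which binds adiponectin) fell by 2.23 ± 0.15, Adrb1 fell by 1.71 ± 0.14 and the leptin receptor Lepr fell by 1.18 ± 0.12, although another Lepr probe differed by 0.13 ± 0.11. The adiponectin receptor Adipor2 differed by -0.38 ± 0.06, below the fold threshold.

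Of 10 other adipokines and secreted proteins, 3 rose and 4 fell in Ctrl-F against NT, beside 10.5% of all genes called higher and 12.2% lower. Itln1 (intelectin 1 or omentin, a lectin that fat tissue and mucous cells secrete) had the largest difference of the 77 genes, with 7.74 and 7.58 in the NT mice, 14.15 and 13.85 in Ctrl-F, 13.68 and 15.05 in Cap-F, and 14.47 and 15.52 in ODNcap-F. It rose by 6.34 ± 0.51 in Ctrl-F (limma adjusted p = 0.000201), and ODNcap-F minus Ctrl-F was 0.99 ± 0.51 (limma adjusted p = 0.76). Rbp4, the plasma carrier of retinol, rose by 2.12 ± 0.25 and Nrg4, a growth factor of brown fat, by 1.42 ± 0.09, although only by 0.71 as the mean of its probes, which was not called. Apln (apelin) fell by 1.61 ± 0.14 and Rarres2 (chemerin) fell by 1.58 ± 0.06. Rbp4 and Itln1 thus rose in Ctrl-F against NT, where Cfd and Adipoq fell. With ODNcap-F or Cap-F set against NT, Cfd and Adipoq were not called, whereas Rbp4 and Itln1 were again called higher.

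**Figure D4:**
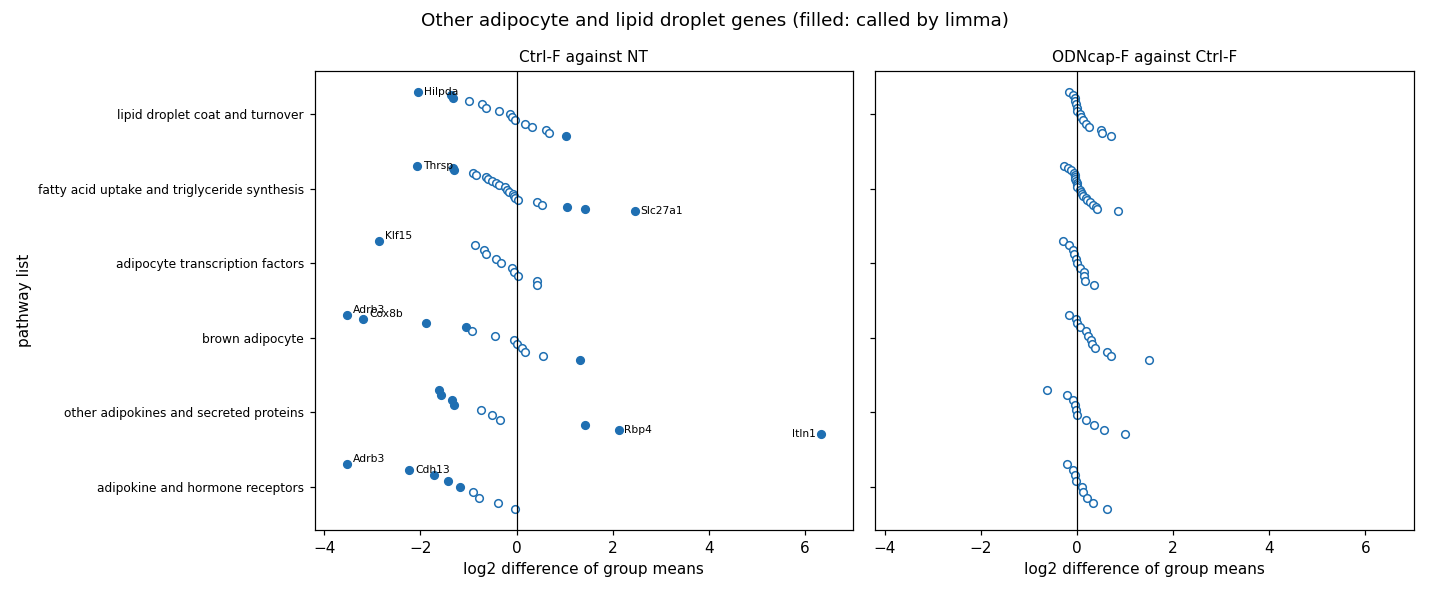
Log2 difference of group means (x axis, 2 mice per group) of each tested gene of the 6 pathway lists (y axis), in Ctrl-F against NT (left) and ODNcap-F against Ctrl-F (right), filled where limma called the gene and spread vertically within a list by rank only. On the left 27 of the 77 genes are filled, from Adrb3 at -3.52 to Itln1 at 6.34, and on the right 0 are.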

How the data were processed

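RNA of 8 lungs was measured on Agilent SurePrint G3 single-color arrays. The authors deposited each array's intensity per spot, background-subtracted and detrended by Agilent Feature Extraction 11.0 (per the labels), and 1 table of log2 values of 32312 probes after quantile normalization over the 8 arrays; values recomputed here differed from it by a median of 3.23e-07.

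From the deposited intensities, control spots were left out (59305 spots remained), 792 flagged spot values were set to missing, log2 values were averaged per probe (56605 probes) and quantile normalized. Kept were 37116 probes that were well above background in both mice of 1 group or more. Names came from a RefSeq table (58.3% of the probes matched), and other transcripts were counted under their accession or probe. Differences were fitted with limma 3.58.1 (R 4.3.3) over all 8 arrays, 4 groups and no covariate, with 4 residual degrees of freedom and Benjamini-Hochberg adjustment over all kept probes. The local-pooled-error test of the study was rebuilt as an alternative. Both were tested on simulated data.

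The 10 genes and all lists were chosen with earlier results of these data known. Named were the 10 genes, 13 other adipocyte genes, up to 5 called genes per list and comparison with the largest change, and the 10 genes most like the members. The brightest probe stood for its gene. The labels do not say whether same-numbered mice share more than a number. The values of 1 receptor gene are not reported here.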

Additional observations from a re-analysis of the deposited data

How the results depend on the processing

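The counts and medians of Ctrl-F and Cap-F against NT depended on how dim probes were treated. The median of the genes in Ctrl-F against NT was -0.72 with normexp background correction, -1.12 in the deposited table, -1.53 with no filter and -1.15 with probes well above background on all arrays, and in Cap-F against NT -0.75, -0.88 and -0.90 under the first, second and last of these. In ODNcap-F against Cap-F it was 0.40, 0.65 and 0.65. Members called fell to 2 in Cap-F against NT with normexp, to 3 in Ctrl-F against NT with no filter, and to 2 in ODNcap-F against NT with the mean of a gene's probes. In ODNcap-F against Ctrl-F, 4 members and 1 pathway gene were called with an unadjusted p and with the local-pooled-error test; in ODNcap-F against Cap-F, 1 and 1 with the former and 3 and 1 with the latter; in Cap-F against Ctrl-F, 1 member with the latter. Retn reversed to -1.52 in Ctrl-F against NT and -0.78 in Cap-F against NT as the mean of its probes, and to -4.09, -2.58 and, in ODNcap-F against NT, -0.95 with its other probe, an alternative chosen after seeing the data. The cause was not tested.

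With 1 mouse left out in turn, the lone mouse of a group being assumed to vary like the others, members called ranged from 2 to 6 in Ctrl-F against NT, from 2 to 4 in Cap-F against NT and from 1 to 4 in ODNcap-F against NT, lowest without NT mouse 2 each time. The median ranged from -2.26 to -0.61 in Cap-F against NT, from -0.75 to 0.17 in ODNcap-F against NT, from 0.72 to 1.74 in ODNcap-F against Ctrl-F and from 0.22 to 2.00 in ODNcap-F against Cap-F. With the replicate number as a block, 6, 4 and 4 members were called against NT and 27, 25 and 24 pathway genes, and no other count changed. Deviations of same-numbered mice correlated at -0.012 to 0.161, the highest for Cap-F and ODNcap-F. With 2 mice per group, this cannot decide whether the numbers mark a shared experiment. Pathway genes called against NT stayed within 1.5 times the counts given under each alternative. Genes near background and groups of 2 mice limit all values.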
